A study of Mus musculus with 4 samples.

Results

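The cells described here are the non-proliferative dermal mesenchyme of the mouse embryonic mammary gland at E15.5 (embryonic day, counted from conception), 100 cells of the 816 kept in the E15.5 library and of the 1630 kept in all 4 libraries. They were chosen by UMI counts, a UMI being 1 captured RNA molecule. Cells were kept if they had 5000 UMIs or more and if mitochondrial genes made up no more than 6% of these. A cell was mesenchymal with at least 10 UMIs of Col1a1, Col1a2 and Col3a1 together, and with more than 2 times as many of these as of 6 epithelial genes (Epcam, Krt8, Krt18, Krt5, Krt14 and Krt15). It was non-proliferative with under 10 UMIs of Top2a, Mki67, Cenpf, Hmmr, Nusap1 and Birc5. It was dermal when Cdkn1c and Plagl1 together had more UMIs than Crabp1 and Lef1 together, and sub-epithelial in the converse case.

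The study profiled mammary rudiments of WT C57B6 female mice (C57 B6/N by the study's methods), with no transgene or treatment, at the embryonic stages E13.5, E14.5 and E15.5, and mammary glands at birth (P0), with 1 droplet 3′ library a stage. Rudiments hold the epithelial bud and the mesenchyme around it, and those of several embryos and of all bud pairs were pooled, so no cell can be traced to an animal. The cell suspension was sorted after removal of cells positive for CD45, CD31 or Ter119, which mark leukocytes, endothelium and erythroid cells. With 1 library a stage, stage and library cannot be told apart, and cells are not replicates. No test was therefore made: levels are a gene's summed UMIs as a share of all UMIs of the class, in CPM, and the intervals in parentheses are exact 95% intervals of counting error only.

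The E15.5 table held 2642 barcodes, of which 816 (30.9%, 29.1 to 32.7) were kept, with 21559040 UMIs. The 100 dermal cells made up 12.3% (10.1 to 14.7) of them and held 2093175 UMIs, with 5021 to 49859 UMIs a cell and a median of 21520. The 95 sub-epithelial cells held 2275046 UMIs at a median of 23886, the 80 proliferative mesenchymal cells 2648783 at 34052, and the 526 epithelial cells 14163958 at 24718. A further 4 mesenchymal cells were ties and 11 kept cells met none of these definitions. The median mitochondrial share was 4.02% in dermal and 4.56% in sub-epithelial cells. The E15.5 library shared 1 barcode with the E13.5 library, 1 with the E14.5 library and 0 with the P0 library. Scrublet, a doublet caller, marked 3 of the 816 cells, of which 0 were dermal and 0 sub-epithelial, too few for the caller to be taken as having worked.

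The embryonic mammary bud sinks from the surface ectoderm into mesenchyme of the skin. The layer of mesenchyme closest to the bud is known for Wnt and hormone responses, and the dermal mesenchyme lies further out and merges with the rest of the dermis. Mesenchyme of this kind signals to the epithelium through secreted growth factors and their inhibitors, of which FGF10 is required for the growth and branching of several epithelial organs. It also lays down a collagen-rich matrix.

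The 4 genes that separated the cells are given only as a description of the choice. Cdkn1c, an inhibitor of cyclin-dependent kinases, had 2201 CPM in dermal and 185 CPM in sub-epithelial cells, and Plagl1, a zinc finger factor, had 549.9 and 18.9 CPM. Crabp1, which binds retinoic acid, had 187 and 887 CPM, and Lef1, a transcription factor of the Wnt pathway, had 37.3 and 133 CPM. Per member, Cdkn1c and Plagl1 exceeded Crabp1 and Lef1 by 1 to 218 UMIs, with a median of 44.5. The choice was not sharp for every cell. At the edge, 3 members had a difference of 1 and 12 a difference of at most 5, and the nearest sub-epithelial cells stood at -1, -2, -3 and -4. Of the 100 members, 39 had no Crabp1 or Lef1 UMI and 61 had at least 1. Proliferation UMIs were at 0 in 65 members and at most 7 in any. Epithelial UMIs were at most 10 in 99 members, and 1 member of 29072 UMIs had 79, of which 41 were Epcam, beside 429 collagen UMIs.

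**Figure D1:**
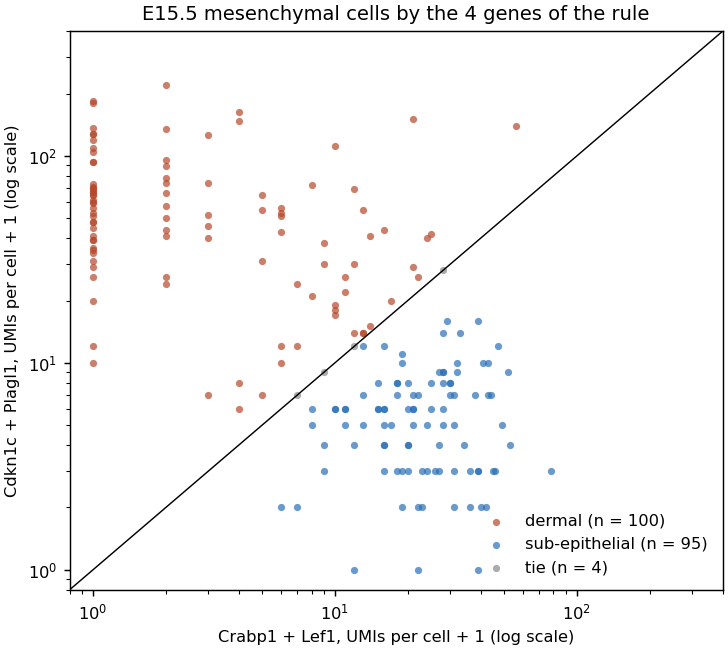
Each point is a non-proliferative mesenchymal cell of the E15.5 library, placed by its UMIs of Crabp1 plus Lef1 (x) and of Cdkn1c plus Plagl1 (y), each with 1 added and on a log scale; the line marks equal sums. The 100 dermal cells lie above the line, 39 of them at no Crabp1 or Lef1 UMI, 12 of them lie within 5 UMIs of it, and the 95 sub-epithelial cells lie below it.

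The label was set beside markers that the choice did not use. Dcn (decorin), a small leucine-rich proteoglycan that binds collagen, had at least 1 UMI in all 100 dermal cells. Its level was 1968 CPM (1909 to 2029) against 229 (209.8 to 249.5) in sub-epithelial cells, 8.59-fold higher (7.84 to 9.43). Tgfb2 was 5.97-fold (4.36 to 8.33) and Fgf10 7.17-fold (2.78 to 23.5) higher. The sub-epithelial markers Esr1, the estrogen receptor alpha, and Vcan (versican), a large proteoglycan, were lower, at 38.7 against 84.0 CPM and at 576 against 1273 CPM. These markers were already known to separate the 2 populations in this library, so their directions are a description and not an independent check of the label. The values below are not corrected for transcript length. Levels are therefore compared between classes for the same gene, and where the most abundant gene of a list is named, this is by UMIs alone.

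Promoter stretches are shown for 6 genes on which the results turn: Fgf10, Tgfb2 and Fzd4, ligands and a receptor seen in only some of the dermal cells, and Aspn, Ogn and Nrk, which were among the genes with the largest ratios. They are RefSeq promoters on GRCm38.p6, read 5′ to 3′ on the gene's strand. Each 300-base window, from 250 bases before to 50 after the start, was searched on both strands for TATAAA, the letters of a common core promoter element, and for CCCNNGGG, the core letters that EBF factors recognise and that read alike on both strands. Capitals mark a match. The Fgf10 stretch, chr13:118714599-118714698 on the plus strand, ends 1 base before the start of its coding transcript, inside an intron of longer non-coding transcripts of the gene (chr13:118669791-118792115). The Tgfb2 stretch, chr1:186705990-186706089 on the minus strand, adjoins the gene (chr1:186622792-186705989) and overlaps an exon of a gene on the other strand. The Fzd4 stretch is chr7:89404266-89404365 on the plus strand, and its last bases lie in the first exon of the gene by GENCODE (chr7:89404355-89413134). The Aspn stretch is chr13:49544226-49544325 and the Ogn stretch chr13:49607776-49607875, both on the plus strand and before the genes at chr13:49544443-49567565 and chr13:49608046-49624501. The Nrk stretch is chrX:138914211-138914310 on the plus strand, before the gene at chrX:138914430-139010532.
Fgf10: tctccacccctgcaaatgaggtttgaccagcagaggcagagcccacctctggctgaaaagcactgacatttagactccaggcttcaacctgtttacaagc
Tgfb2: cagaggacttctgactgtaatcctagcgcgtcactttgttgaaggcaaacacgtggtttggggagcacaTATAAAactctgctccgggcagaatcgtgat
Fzd4: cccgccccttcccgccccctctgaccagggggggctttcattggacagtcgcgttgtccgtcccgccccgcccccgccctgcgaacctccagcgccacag
Aspn: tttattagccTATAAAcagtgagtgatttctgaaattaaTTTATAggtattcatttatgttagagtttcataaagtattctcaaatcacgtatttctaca
Ogn: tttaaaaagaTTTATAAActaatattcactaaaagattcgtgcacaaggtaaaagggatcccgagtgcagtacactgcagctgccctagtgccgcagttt
Nrk: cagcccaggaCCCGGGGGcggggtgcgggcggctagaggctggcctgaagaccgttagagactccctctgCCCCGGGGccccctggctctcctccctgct

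The Tgfb2 match began 31 bases before the start on the gene's strand. Of 32851 mouse promoters outside chromosome 18, which was left out, 1.87% had TATAAA between 40 and 26 bases before their start. Aspn had matches 207 and 178 bases before its start, the second on the other strand, and Ogn had overlapping ones at 229 and 227. Nrk held CCCNNGGG at 209 and 149 bases. Either motif was common, with TATAAA in 13.6% and CCCNNGGG in 13.7% of these promoter windows, and the Fgf10 and Fzd4 windows held neither. Other genes with large ratios were looked up but are not printed. Agtr2, Itm2a and Ebf1 held neither motif, and Thbs2 held TATAAA 126 bases before its start on the other strand. A match is a run of letters and not a binding site.

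Across 7616 genes with at least 10 CPM over both classes together, 372 (4.88%) were at least 2-fold higher in dermal than in sub-epithelial cells and 271 (3.56%) at least 2-fold lower, together 8.44%. The median log2 ratio was -0.08. Both shares include the genes of the choice and every gene that moves with them, so they are the background against which the counts of the gene lists below are set. A level of 3 UMIs corresponded to 1.43 CPM in dermal and 1.32 CPM in sub-epithelial cells, and a fold against a level of 0 is given against 3 UMIs over the class. Medians given for lists are of log2 ratios, beside the -0.08 over all tested genes.

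**Figure D2:**
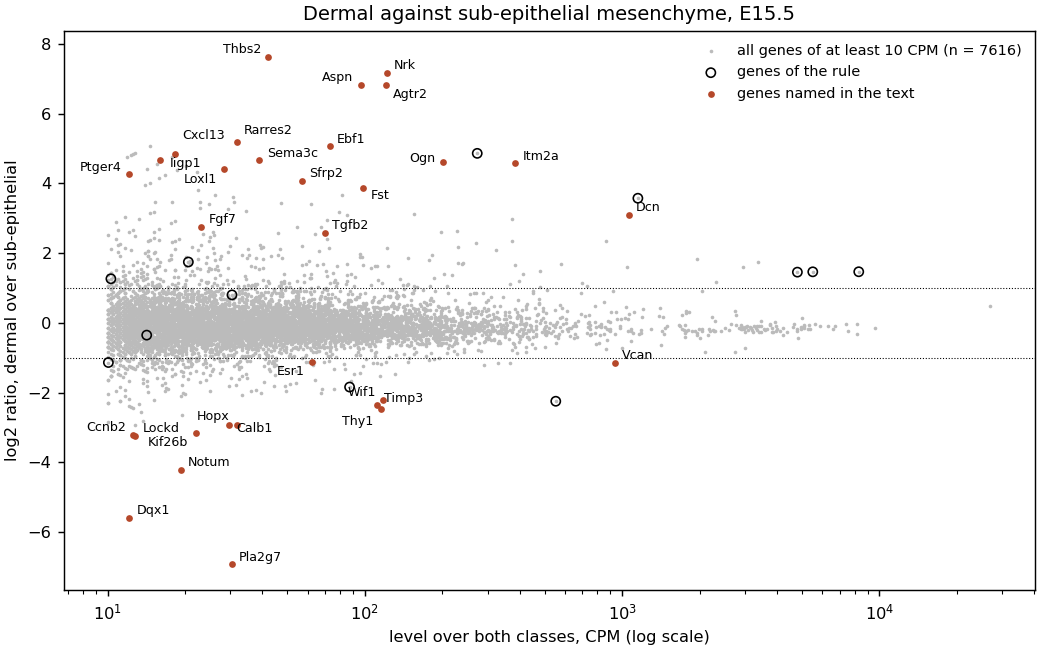
Each point is a gene with at least 10 CPM over the dermal and sub-epithelial cells together; x is that level in CPM (log scale) and y the log2 ratio of dermal over sub-epithelial, with dotted lines at 2-fold, and a gene at 0 in 1 class placed at its bound against 3 UMIs. Most of the 7616 genes lie near 0, while Thbs2, Nrk, Agtr2 and Aspn stand highest and Pla2g7, Dqx1 and Notum lowest.

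FGF ligands, which signal to receptor tyrosine kinases on the epithelium, were sparse, and Fgf10, Fgf7 and Fgf18 were all higher in dermal than in sub-epithelial cells. Fgf10 had 33 UMIs in 19 dermal cells, with at most 4 in a cell, and 5 UMIs in 2 sub-epithelial cells. This gave 15.8 CPM (10.9 to 22.1) and 2.20 CPM (0.714 to 5.13), and a share of cells with a UMI of 19% (11.8 to 28.1) against 2.11%. In epithelial cells, which served as the background for free RNA, the share was 0.380% at a median of 24718 UMIs, against 21520 in the dermal cells. Thinned to 5000 UMIs a cell, 6.68% of dermal cells would be expected to show a Fgf10 UMI. Fgf7, a related ligand for the same epithelial receptor family, had 41.6 CPM (33.3 to 51.3) in 43 dermal cells and 6.15 CPM (3.36 to 10.3) in 9 sub-epithelial cells, 6.75-fold higher (3.82 to 12.9). Fgf18 had 25 UMIs in 14 dermal cells and 1 UMI in the sub-epithelial class, a ratio of 27.2 with a counting interval of 4.45 to 1116. Of 22 FGF ligands, 17 had a dermal UMI and 1, Fgf7, reached the 10 CPM limit.

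Ligands of the TGF-beta and BMP family differed from one to the next, with Tgfb2 and Tgfb3 higher and Bmp4 and Bmp7 lower in the dermal cells. Tgfb2 had 258 UMIs in 55 cells, up to 17 in a cell, against 47 in 23 sub-epithelial cells, or 123 CPM (109 to 139) against 20.7 (15.2 to 27.5). The share of cells with a Tgfb2 UMI was 55.0% (44.7 to 65.0) as counted and 35.2% by expectation at 5000 UMIs, against 24.2% and 8.23% in sub-epithelial cells. Outside the dermal class the level was much the same, at 18.1 CPM in proliferative and 24.8 CPM in epithelial cells, where 29.3% of cells had a Tgfb2 UMI, and the part of free RNA in these was not measured. Tgfb3 was 2.69-fold (1.5 to 5.03) higher, and Gdf10, a more distant member, 12.2-fold (6.56 to 25), at 58.8 against 4.84 CPM. Bmp4 was 3.86-fold (2.37 to 6.54) and Bmp7 3.04-fold (2.04 to 4.63) lower in dermal cells, and Inhbb, an activin subunit, 2.15-fold (1.68 to 2.76). Bmp1 and Bmp2 were not lower. Bmp2 had 73.6 against 47.9 CPM, a ratio of 1.54 (1.19 to 1.98), with 41 of its 154 dermal UMIs in 1 cell. Without that cell the ratio was 1.14 (0.867 to 1.49), so no difference was detectable. Bmp1, a protease despite its name, had 92.7 against 56.3 CPM, a ratio of 1.65 (1.31 to 2.08). Of the 12 ligands tested, 3 were at least 2-fold higher and 3 lower, with a median log2 ratio of 0.41.

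Of 9 antagonists and modulators of these ligands, 3 were at least 2-fold higher and 0 lower, with a median of 0.42. The 3 were the inhibitors Fst and Fstl1 and the co-receptor Rgmb. Fst (follistatin), which traps activins, had 401 UMIs in 44 dermal cells, up to 63 in a cell, and 30 UMIs in the sub-epithelial class. The levels were 192 CPM (173 to 211) and 13.2 CPM (8.90 to 18.8), a ratio with an interval of 10.0 to 21.8. The epithelium held more of it, at 1257 CPM. Fstl1, a related secreted glycoprotein, was present in all 100 members and 2.09-fold (1.95 to 2.26) higher. Rgmb, a BMP co-receptor, was 3.21-fold (2.41 to 4.32) higher.

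Of 19 Wnt ligands 10 had a dermal UMI and 3 reached the 10 CPM limit, of which 0 passed 2-fold, with a median of -0.35. Wnt5a had 159.6 CPM (143 to 178) in dermal and 182 (164 to 199.9) in sub-epithelial cells, a ratio of 0.879 (0.759 to 1.02), and Wnt4 0.787 (0.578 to 1.07), or 0.658 (0.474 to 0.908) without the cell richest in it. Wnt2, under the limit, had 20 UMIs in 7 dermal cells and 1 in the sub-epithelial class, a ratio of 21.7 with a counting interval of 3.48 to 901, and 13 of the 20 were in 1 cell that is described further on. The interval of Wnt11, at 0.702 (0.543 to 0.904), lay below 1. Secreted modulators of Wnt signalling went both ways, with 2 of 10 at least 2-fold higher and 3 lower. The frizzled-related proteins Sfrp1 and Sfrp2, which bind Wnts, were 11-fold (5.08 to 28.4) and 16.9-fold (10.0 to 30.7) higher. Sfrp2 had 233 UMIs in 56 dermal cells and 15 in 9 sub-epithelial cells. Wif1, another Wnt-binding inhibitor, was 4.63-fold (3.66 to 5.92) lower, and Notum, an enzyme that strips the lipid from Wnts, 18.4-fold (6.91 to 69.2) lower with 4 UMIs in 100 cells. Rspo3, an R-spondin that raises Wnt signalling, was 3.89-fold (2.60 to 6.01) lower, and 18 of its 30 dermal UMIs came from 1 cell. Without that cell the dermal over sub-epithelial ratio of Rspo3 was 0.104 (0.0522 to 0.188) instead of 0.257. Rspo1 differed little, at 197 against 149 CPM.

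Of 7 chemokines tested, 6 were at least 2-fold higher in dermal cells and 0 lower, with a median of 2.14, and several rested on few cells. Cxcl12, which guides cells that carry CXCR4, had 98 UMIs in 36 dermal cells and was 10.7-fold (5.55 to 22.9) higher. Ccl2, which attracts monocytes, had 619 UMIs in 46 cells, of which 202 were in 1 cell, and was 3.84-fold (3.25 to 4.57) higher. Cxcl13, which attracts B cells, had 80 UMIs in 15 dermal cells, 40 of them in 1, and 0 in the sub-epithelial class. Its level as counted was 29.0 times a floor of 3 UMIs over that class. The counting interval of the ratio began at 23.0, and at 11.4 without the cell that held 40. Cxcl10 was 10.6-fold (7.02 to 16.7) higher than in sub-epithelial cells and yet lower than in the epithelium, at 117 against 550.5 CPM.

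Other secreted factors followed no common direction. Of 12 growth factors of the PDGF, VEGF, HGF and KIT groups, 4 were at least 2-fold higher and 1 lower, and of 11 guidance and neurotrophic factors 3 were higher and 2 lower. Ptn (pleiotrophin), a heparin-binding growth factor, had 4555 CPM (4464 to 4647) in dermal and 1488 (1438 to 1539) in sub-epithelial cells. Kitl, the ligand that melanoblasts need, was 2.81-fold (2.18 to 3.64), Vegfd, a lymphatic growth factor, 4.61-fold (2.96 to 7.44), and Sema3c, a secreted semaphorin, 25.3-fold (12 to 63.9) higher. The epithelium held more Sema3c, at 118 CPM against 77.9 in dermal cells. Lower in dermal cells were Edn3, an endothelin for melanoblasts, 2.04-fold (1.28 to 3.31), and Pdgfc, 2.23-fold (1.28 to 4.03) with 19 against 46 UMIs. Thinning each cell to 5000 UMIs turned the direction of Pdgfc and of Ntn1, which as counted was one of the 3 higher guidance factors with 34 against 17 UMIs. Bdnf, a neurotrophin, had 204 against 355 CPM. Igf1 was abundant in both classes, at 690.3 and 539.8 CPM.

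**Figure D3:**
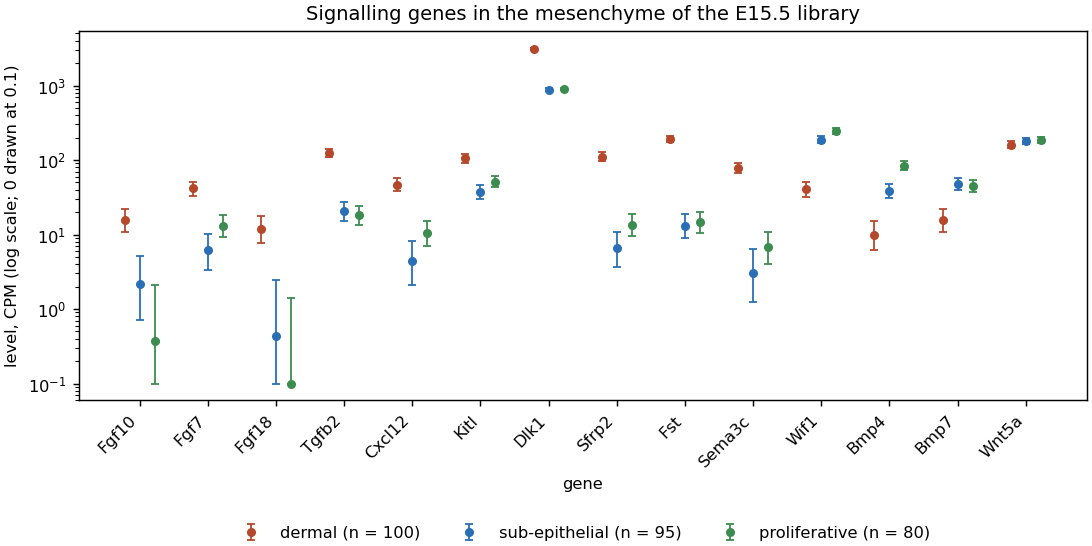
Levels of 14 secreted signalling genes in CPM (y, log scale) in the dermal, sub-epithelial and proliferative mesenchymal cells of the E15.5 library; points are summed UMIs as CPM and bars the exact 95% counting intervals, with a level of 0 and lower ends under 0.1 CPM drawn at 0.1. From Fgf10 to Sema3c the dermal points stand above the others, for Wif1, Bmp4 and Bmp7 they stand below, and for Wnt5a the 3 intervals overlap.

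Most receptors of growth factors and Wnts stayed under 2-fold, as did most of all tested genes, of which 4.88% were higher and 3.56% lower. The share of higher receptors was not below the share over all genes. Of 17 growth factor receptors 2 were at least 2-fold higher in dermal cells and 0 lower, with a median of -0.14. Of 11 Wnt receptors 2 were higher and 0 lower, with a median of 0.03. In lists of this size 0 lower is near the share over all genes, so no direction is read from it. Tgfbr2, the type II receptor of TGF-beta, was 2.47-fold (1.89 to 3.24) higher and Igf2r, which clears IGF2, 2.18-fold (1.84 to 2.58). Lgr4 and Lgr5, receptors of R-spondins, were 3.30-fold (2.10 to 5.36) and 5.16-fold (2.74 to 10.6) higher, though both had more CPM in the epithelium. Pdgfra, a general fibroblast receptor, had 177 against 235 CPM and Fgfr1 171 against 211 CPM.

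Fzd4, a frizzled receptor for Wnts and norrin, was scarce and under the 10 CPM limit of the list. It had 27 UMIs in 15 dermal cells, with at most 6 in a cell, and 1 UMI in the sub-epithelial class, or 12.9 CPM (8.50 to 18.8) against 0.440 (0.0111 to 2.45). The ratio was 29.3, with a counting interval of 4.84 to 1201. The share of dermal cells with a UMI was 15.0% (8.65 to 23.5), 5.36% by expectation at 5000 UMIs, against 2.09% of epithelial cells.

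Of 16 hormone and other receptors tested, 1 (Nrp2) was at least 2-fold higher and 2 (Esr1 and Npr3) were lower, with a median of -0.31. Esr1 was 2.17-fold (1.66 to 2.85) lower in dermal cells, and Npr3, a clearance receptor for natriuretic peptides, 4.03-fold (2.31 to 7.43). Without 1 cell that held 8 of the 16 dermal Npr3 UMIs its ratio was 0.125 (0.0520 to 0.260) instead of 0.248, and without the cell richest in Nrp2 the ratio of that gene was 1.79 (1.23 to 2.62) instead of 2.08. For Pgr, the progesterone receptor, the ratio was 1.28 (0.818 to 2.02) and for Pth1r, the receptor of parathyroid hormone-related protein, 0.861 (0.655 to 1.13), so no difference was detectable at this depth. Agtr2, the type 2 receptor of angiotensin II, was not on that list and was among the genes with the largest ratios, with 521 UMIs in 61 dermal cells, up to 41 in a cell, against 5 UMIs in 4 sub-epithelial cells. That is 249 CPM (228 to 271) against 2.20 (0.714 to 5.13), or 113-fold (48.2 to 350.3). Ptger4, a prostaglandin E2 receptor, had 53 UMIs in 19 dermal cells and 0 in the sub-epithelial class, or 19.2 times a floor of 3 UMIs as counted. The counting interval of its ratio began at 15.1, and at 12 without the cell richest in it.

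Matrix genes were more often higher than lower in the dermal cells. Of 7 fibrillar collagens 6 were at least 2-fold higher, but 3 of these, Col1a1, Col1a2 and Col3a1, helped to choose the cells. Of the others, Col5a2, which helps to set the diameter of collagen I fibrils, had 905 CPM (865 to 947) against 278 (257 to 301), 3.25-fold higher (2.97 to 3.56). Among 16 other collagens 5 were higher and 2 lower. Col12a1, a collagen that sits on the fibril surface, was 5.08-fold (4.47 to 5.79) higher. Collagen IV chains of basement membranes went both ways. Col4a1 and Col4a2, the 2 lower genes, were 2.50-fold (1.95 to 3.23) and 2.42-fold (1.77 to 3.35) lower, and Col4a5 was 3.09-fold (1.61 to 6.34) higher.

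The small leucine-rich proteoglycans were split within the family. Of 16 proteoglycan and hyaluronan genes, 6 were at least 2-fold higher and 2 lower, with a median of 0.45. Lum (lumican) was 5.12-fold (4.70 to 5.57) higher, at 1489 against 291 CPM. Ogn (osteoglycin) had 841 UMIs in 76 dermal cells and 37 in 17 sub-epithelial cells, 24.7-fold higher (17.8 to 35.3). Aspn (asporin) had 417 UMIs in 46 dermal cells and 4 in 3 sub-epithelial cells, 113-fold higher (43.9 to 418). Fmod (fibromodulin), of the same family, was 3.09-fold (2.33 to 4.15) lower in dermal cells, with Vcan 2.21-fold (2.07 to 2.37) lower. Gpc3, a glypican on the cell surface, was 7.94-fold (6.84 to 9.27) higher.

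Aspn and Ogn are neighbours on chromosome 13, where Ecm2, Aspn, Omd and Ogn follow each other with 11653, 14896 and 15223 bases between them. Ecm2 and Omd were looked up for this reason after the values of Aspn and Ogn were seen. Ecm2 had 3 UMIs and Omd 1 UMI in the dermal cells, beside 417 UMIs of Aspn and 841 of Ogn, whose promoter stretches are printed above.

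Elastic fibre genes, glycoproteins and proteases were also shifted upwards. Of 19 elastic fibre and microfibril genes 9 were at least 2-fold higher and 0 lower, with a median of 0.82. Fbn1 (fibrillin) was 3.60-fold (2.99 to 4.36), Efemp1 (fibulin-3) 33.7-fold (8.94 to 284) and the crosslinking enzyme Loxl1 21.4-fold (9.53 to 59.4) higher, whereas Eln (elastin) was level at 140.5 and 131 CPM. Of 26 matrix glycoproteins 13 were higher and 3 lower, with a median of 0.96. Sparc, which binds collagen, had 3256 against 1435 CPM, Fn1 (fibronectin) 594 against 189 CPM, and Dpt (dermatopontin) 460.1 against 94.1 CPM. Thbs2, an antiangiogenic thrombospondin, had 183 UMIs in 31 dermal cells and 1 in the sub-epithelial class, a ratio of 199 with a counting interval of 35.3 to 7899. Tnc (tenascin-C) had fewer, at 159.6 against 281 CPM. Of 26 proteases and inhibitors 10 were higher and 2 lower, with Adamts5, an aggrecanase, 9.61-fold (5.41 to 18.6) higher and Timp3, a matrix-bound inhibitor, 5.15-fold (4.01 to 6.68) lower.

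Transcription factors differed in both directions. Of 53 mesenchymal factors 13 were at least 2-fold higher and 3 lower, with a median of 0.16. Ebf1, an early B-cell factor that is also active in fibroblasts and fat precursors, had 309 UMIs in 51 dermal cells and 10 in 5 sub-epithelial cells, 33.6-fold higher (18.0 to 70.7). Osr2, an odd-skipped zinc finger factor, was 10.8-fold (6.70 to 18.3), Klf4 8.78-fold (6.90 to 11.3) and Klf2 6.20-fold (5.20 to 7.43) higher. Nfib and Nfia, of the nuclear factor I family, had 717 against 257 and 362 against 109 CPM. The 3 lower factors were Trps1, 4.03-fold (3.00 to 5.51), Runx3, 3.91-fold (2.06 to 8.06), and Mef2c, 2.19-fold (1.84 to 2.61). The general mesenchymal factors Twist2 and Prrx1 differed little, with ratios of 0.854 (0.772 to 0.945) and 1.30 (1.14 to 1.47).

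Of 17 T-box, homeobox and patterning factors, 0 were at least 2-fold higher and 4 lower. Axin2 and Tcf7, known targets of Wnt signalling, were 2.84-fold (2.31 to 3.52) and 5.41-fold (2.53 to 13.2) lower, and Msx2, a target of BMP signalling, 3.13-fold (1.51 to 7.10). Tbx3, needed for mammary bud formation, had 65.9 against 107 CPM. Among 13 Hox genes, which mark position along the body, 0 were higher and 2 lower, Hoxd9 by 3.42-fold (2.01 to 6.12) and Hoxb9 by 2.10-fold (1.80 to 2.45).

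Cdkn1c and Plagl1 are imprinted, and of 23 other imprinted genes, many of which act on growth, 10 were at least 2-fold higher, 0 lower and 13 under 2-fold, with a median of 0.90. Meg3, a long non-coding RNA, had 5312 CPM (5213 to 5411) against 1588 (1536 to 1640), 3.35-fold higher. Its neighbour Dlk1, a transmembrane inhibitor of fat cell differentiation, had 3109 CPM (3034 to 3186) against 874 (836 to 914). H19 was 3.07-fold (2.87 to 3.28), Mest 4.28-fold (3.76 to 4.89) and Igf2, a fetal growth factor, 3.22-fold (2.47 to 4.23) higher. Peg3 was level, at 1036 against 953 CPM. Others stood below 1, with a ratio of 0.583 (0.517 to 0.658) for Nnat (neuronatin), 0.733 (0.554 to 0.966) for Usp29 and 0.764 (0.546 to 1.06) for Zrsr1.

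Lists of genes known from skin fibroblast layers split in the same comparison. Of 10 upper dermis genes 1 was at least 2-fold higher and 6 were lower in the dermal cells, with a median of -1.37. The 6 were Axin2, Wif1, Trps1, Corin, Nkd1 and Nkd2, of which Axin2, Nkd1 and Nkd2 are Wnt targets. Of 12 genes of the lower dermis, the fascia and widely shared fibroblasts, 7 were higher and 1 lower, with a median of 1.76. They included Dlk1, Creb5, an activator of the CREB family, at 372 against 115 CPM, and Gsn (gelsolin), which severs actin, at 74.5 against 19.3 CPM. Among 6 fat precursor genes 2 were higher, while Fabp4, Plin1 and Adipoq, which define fat cells, were at 0 in the 100 members.

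Several genes of the last lists rested on 1 cell, which was singled out after its values were seen. This member, of 27996 UMIs, held 42 of the 53 dermal UMIs of Mfap5, a microfibril protein of fascia, 13 of the 20 of Wnt2, 59 of the 105 of Nov, a CCN protein, and 28 of the 84 of Cd55, a complement regulator. It also held all 9 UMIs of Pi16, known from a widely shared fibroblast type. Without it the ratios to sub-epithelial cells were 6.06 (1.32 to 56.3) for Mfap5, down from 28.8, and 5.63 (2.72 to 13.1) for Nov, down from 12.7. They were 7.71 (0.991 to 348) for Wnt2 and 15.4 (5.70 to 58.6) for Cd55. Another member, of 49859 UMIs, held 51 of the 120 UMIs of Grem1, a BMP inhibitor, and 11 of the 14 of Calb1. Without it the ratios were 0.477 (0.355 to 0.636) for Grem1, instead of 0.810, and 0.0290 (0.00590 to 0.0870) for Calb1, instead of 0.132.

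Markers of cell types that the sort or the dissection could have let through were mostly near 0. Over 6 endothelial genes the dermal cells held 20.5 CPM, with Emcn and Cldn5 at 0 and Kdr the most abundant at 10.0 CPM, against 17.1 CPM in sub-epithelial cells. For 7 leukocyte genes the sum was 9.08 CPM, with Ptprc, C1qa and Tyrobp at 0 and Cd68 the most abundant. Erythroid genes summed to 3.82 CPM, Schwann genes to 2.87 with Sox10 and Foxd3 at 0, melanocyte genes to 2.39 with Dct, Tyrp1 and Mlana at 0, and skeletal muscle genes to 10.5 with Myf5, Pax7 and Myl1 at 0. Fat cell genes summed to 19.1 CPM, led by Cebpa, and cartilage genes to 18.2, led by Col9a1 with Acan and Matn1 at 0. Dermal condensate genes summed to 79.8 CPM against 136 in sub-epithelial cells, with Sox2 and Sox18 at 0 and Cdkn1a the most abundant. Epidermal genes summed to 32.5 CPM against 31.6, led by Krt10.

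In the pericyte and smooth muscle list and the epithelial list the dermal sum stood above the sub-epithelial one. Pericyte and smooth muscle genes summed to 226 CPM against 76, of which Acta2, actin of smooth muscle and activated fibroblasts, gave 173 against 55.8 CPM. All 7 genes of that list had a UMI. Epithelial genes summed to 125 CPM against 54.1, beside 7420 in epithelial cells, with Krt14 the most abundant. Leaving out the member with 79 epithelial UMIs kept all 116 named genes past 2-fold on the same side. The part of either cell type in the other differences was not tested.

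Dissociation at 37 °C induces immediate early and heat shock genes. The 20 genes of this kind summed to 17667 CPM in dermal and 15770 CPM in sub-epithelial cells, with 2 at least 2-fold higher, Fosb by 3.73-fold (2.96 to 4.75) and Dusp1 by 2.23-fold (1.77 to 2.83), and 0 lower. Klf2 and Klf4 can be induced in the same way, and the part of the dissociation in their ratios was not tested.

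Ranked over all tested genes by the interval bound nearest to 1, and leaving out the genes of the choice, the 15 largest ratios belonged to Nrk, Agtr2, Aspn, Thbs2, Cxcl13, Iigp1, Itm2a, Ebf1, Ogn, Ptger4, Rarres2, Sema3c, Sfrp2, Fst and Loxl1. Nrk, a kinase known from placenta and embryonic mesenchyme, had 528 UMIs in 49 dermal cells, up to 45 in a cell, and 4 UMIs in 4 sub-epithelial cells, 143-fold higher (55.7 to 529). Itm2a, a membrane protein of cartilage and muscle precursors, had 1602 UMIs in 76 cells against 73 in 41, 23.9-fold higher (18.9 to 30.6). Rarres2, the chemokine-like protein chemerin, had 135 UMIs in 50 cells against 4. Iigp1, an interferon-induced GTPase, had 70 UMIs from only 2 dermal cells. In the proliferative mesenchyme Nrk stood at 4.91 CPM, Aspn at 6.42, Agtr2 at 38.5 and Dcn at 379.8 CPM, each below the dermal level.

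The 10 smallest ratios belonged to Pla2g7, Dqx1, Notum, Kif26b, Hopx, Calb1, Thy1, Timp3, Lockd and Ccnb2. Pla2g7, which breaks down platelet-activating factor, had 1 UMI in the dermal class and 132 UMIs in 35 sub-epithelial cells, a ratio of 121 the other way with a counting interval of 21.4 to 4833. Kif26b, a kinesin-like protein, was 8.89-fold (4.48 to 20.1), Hopx, a homeodomain-only cofactor, 7.61-fold (4.44 to 14) and Thy1, a surface glycoprotein, 5.51-fold (4.28 to 7.17) lower. Ccnb2 is a mitotic cyclin, with 5 UMIs in dermal and 50 in sub-epithelial cells. All 52 sub-epithelial UMIs of Dqx1 came from 1 cell.

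Proliferation differed between the classes on either side of the limit of 10 UMIs. Of the 80 proliferative mesenchymal cells, 15 had more Cdkn1c and Plagl1, 63 had more Crabp1 and Lef1 and 2 were ties. Proliferative cells thus made up 13% (7.49 to 20.6) of 115 cells on the dermal side and 39.9% (32.2 to 48.0) of 158 on the sub-epithelial side. Cdkn1c is itself a cell cycle inhibitor and one of the genes of the choice, so this is given as a description. All 80 cells lie outside the dermal class by the proliferation limit.

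The spread among the dermal cells was described gene by gene. After thinning to 5000 UMIs a cell, the variance of UMIs over cells divided by their mean, which is near 1 for counting noise alone, had a median of 1.15 over 3464 genes with a mean of at least 0.2 UMIs. It was at least 2 for 228 of them. The value also depends on a gene's mean, so it does not rank genes of different levels by their spread. Malat1 and Col1a1, for example, had means of 158 and 60.7 thinned UMIs. The highest values were 107 for Gm42418, which overlaps ribosomal RNA, 44.4 for Malat1, a nuclear RNA, and 28.4 for Col1a1, followed by Ccl2 at 21.9, Col1a2 at 18.8, Fos at 17.6 and Col3a1 at 17.0. Meg3, AY036118, Gfod2, Hspb1, Tctn1, Itm2a, Ptn and H19 completed the first 15. For Gfod2 and Tctn1 only 5 cells had a UMI after thinning, and 1 cell held 66.7% and 60.7% of these. Itm2a, by contrast, had a UMI in 61 thinned cells and a value of 11.2. Ccl2, with 30 such cells, had 66.4% of its UMIs in 5.

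Agtr2, Aspn, Nrk and Ogn, 4 of the genes with the largest ratios, were unevenly spread over the members. As counted, 12 cells had a UMI of none of them, 24 of 1, 16 of 2, 16 of 3 and 32 of all 4. After thinning to 5000 UMIs a cell, 24 had none, 26 had 1, 14 had 2, 20 had 3 and 16 had all 4. The median depth was 21191 UMIs for the 61 cells with Agtr2 and 22536 for the 39 without, 21234 for the 49 with Nrk and 22450 for the 51 without, and 22475 for the 46 with Aspn and 21428 for the 54 without. Over the 100 thinned cells the Pearson correlation of log counts was 0.61 for Agtr2 with Nrk, 0.58 for Agtr2 with Ogn and 0.45 for Agtr2 with Aspn. It was 0.44 for Aspn with Ogn, 0.43 for Nrk with Ogn and 0.36 for Aspn with Nrk. Outside the 4, Nrk with Itm2a had 0.59. With Plagl1, a gene of the choice, it was 0.57 for Agtr2, 0.60 for Nrk, 0.61 for Ogn and 0.45 for Aspn. These are descriptions over cells of 1 library that share its free RNA.

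**Figure D4:**
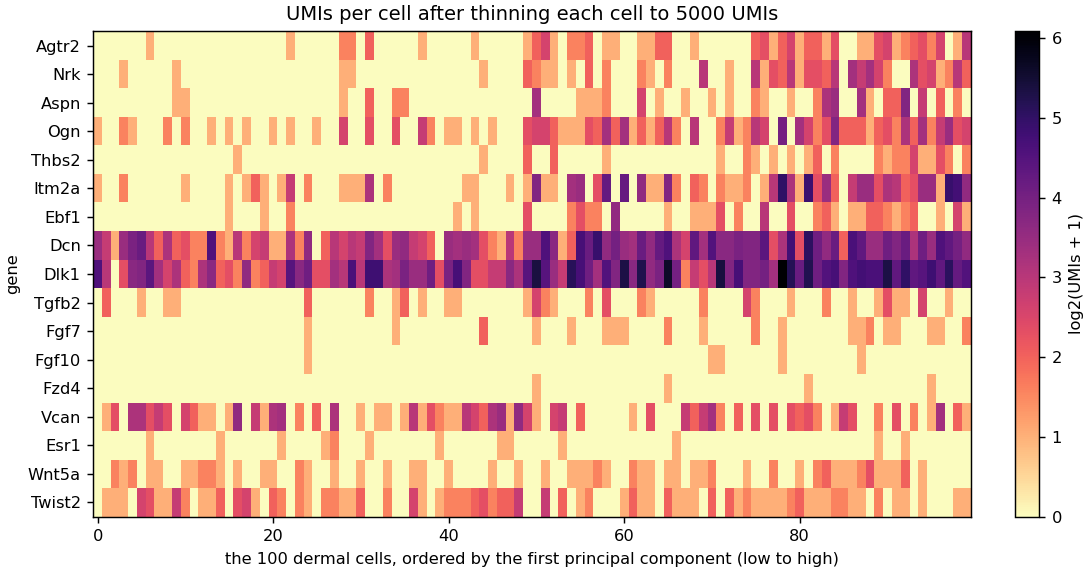
UMIs of 17 genes (rows) in the 100 dermal cells (columns), each cell thinned to 5000 UMIs and coloured by log2 of UMIs plus 1, with cells ordered by the first principal component from low to high. Agtr2, Nrk, Ogn, Thbs2, Itm2a and Ebf1 are filled mainly on the right, Dcn and Dlk1 in nearly every cell, and Fgf10 and Fzd4 in only 5 and 4 cells, most of them in the right part.

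The first 2 principal components of log-normalised counts held 7.85% and 4.88% of the variance. On the first, the 8 genes with the highest loadings were Sparc, Nrk, Itm2a, Ogn, Col5a2, Agtr2, Thbs2 and Dpt. The lowest loadings belonged to ribosomal protein genes, among them Rpl37, Rpl35a and Rps15a, and all 53 such genes in the analysis lay on the low side. Position on it correlated at 0.08 with log10 UMIs, -0.52 with the mitochondrial share and 0.45 with the dermal share of the UMIs of the 4 separating genes (n = 100 cells). The second ran from its high side, with Rps27, Col9a2, Rpl23, Fosb, Dlk1, Sfrp2, Itm2a and Gpc3, to its low side, with Actb, Tmsb10, Tpm4, Lgals1, Vcan, Hmgb1, Cnn2 and Zeb2, the latter including several actin cytoskeleton genes. Position on the second correlated at -0.23 with log10 UMIs, 0.14 with the mitochondrial share and 0.46 with the dermal share of the separating UMIs, and 2 of the 53 ribosomal protein genes lay on its low side. The parts of depth and RNA quality in either were not tested beyond these values.

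Fgf10 and Fzd4 were seen in few cells, 19 and 15, and Tgfb2 in 55, and these sets overlapped. None of these 3 was seen in 38 cells, 1 in 40, 2 in 17 and all 3 in 5. Fzd4 was seen in 7 of the 19 cells with Fgf10 (36.8%, 16.3 to 61.6) and in 8 of the 81 without it (9.88%, 4.36 to 18.5). Tgfb2 was seen in 14 of the 19 (73.7%, 48.8 to 90.9) and in 41 of the 81 (50.6%, 39.3 to 61.9). Each pair of intervals overlaps, for Fzd4 only from 16.3 to 18.5, and an overlap does not show that the shares are equal. The median depth was 22597 UMIs with and 21499 without Fgf10. After thinning, 5 cells kept a Fgf10 UMI and 4 a Fzd4 UMI, too few to compare. The correlations over thinned cells, -0.02 for Fgf10 with Tgfb2 and -0.05 for Fgf10 with Fzd4, are no finding at such counts.

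The 39 members with no Crabp1 or Lef1 UMI were set beside the 61 with at least 1, at median depths of 18445 and 23136 UMIs. The split uses genes of the choice, so a more dermal profile of the 39 is partly built in, and the values are a description. The ratio of the 39 over the 61 was 3.87 (3.15 to 4.78) for Aspn, 3.25 (2.71 to 3.89) for Agtr2 and 3.47 (2.64 to 4.59) for Sfrp2. It was 3.05 (1.95 to 4.84) for Fgf7, 2.51 (1.95 to 3.24) for Tgfb2, 4.65 (1.94 to 12.3) for Fzd4 and 1.54 (1.45 to 1.64) for Dcn. The intervals of Rarres2, at 1.30 (0.907 to 1.86), and Ptger4, at 1.01 (0.537 to 1.83), included 1. Fgf10 had 21.2 CPM (11.9 to 35) in the 39 and 13 (7.70 to 20.5) in the 61, and the ratio of 1.63 had an interval of 0.765 to 3.43. Esr1 was lower in the 39, at 17.0 against 49.8 CPM, as was Thy1, at 5.65 against 49.1 CPM. Shallower cells also have more chance of no UMI, and the part of depth in this split was not tested.

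The same choice applied to the other libraries gave 76 dermal cells at E13.5, with 1295864 UMIs and a median of 15954, 16 at E14.5 and 257 at P0, at a median of 8792. At E13.5 only 17 cells with 255142 UMIs were sub-epithelial, so low levels in that class rest on few UMIs. At P0, 0 cells were sub-epithelial by the choice and 6 were ties, with Crabp1 at 6.27 and Lef1 at 1.25 CPM in the 257 cells. There the choice separated no classes, and dermal at P0 means nearly all non-proliferative mesenchymal cells. The paper divides the mesenchyme at birth into Col15a1, Pi16 and Eln fibroblast clusters. Of 8044 genes with at least 10 CPM over the E13.5 and E15.5 dermal cells, 608 (7.56%) were at least 2-fold higher at E15.5 and 986 (12.3%) lower, with a median log2 ratio of -0.21. Some widely expressed genes were lower in every class of the E15.5 library. Nme2, a nucleoside diphosphate kinase, had 1259 CPM in dermal, 1199 in sub-epithelial and 738 in epithelial cells at E13.5, and 56.4, 58.9 and 32.6 CPM at E15.5. Atp6v0c, a subunit of the vacuolar proton pump, had 322, 239 and 274 CPM, and then 6.21, 2.20 and 3.60 CPM. Rnasek, Mrpl53, Gng10, Timm23, Ube2v1 and Cpne1 were likewise lower in all these classes, and such genes are among the 986. The part of the gene table and of the processing in these counts was not tested. The E15.5 table lists 31053 genes and the others 32285, with 30406 in common, and stage cannot be told apart from library and processing. Genes of this comparison were named after their values were seen.

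Of the signals that set dermal apart from sub-epithelial cells at E15.5, Fgf10, Tgfb2, Fzd4 and Fgf7 had similar levels in the dermal cells of the E13.5 and E15.5 libraries. This did not hold in every library between and after. Fgf10 had 17.7 CPM at E13.5 and 15.8 at E15.5, a ratio of 0.888 (0.506 to 1.58). For Tgfb2 the levels were 121 and 123 CPM and the ratio 1.02 (0.831 to 1.25), for Fzd4 13.1 and 12.9 CPM and 0.983 (0.517 to 1.92), and for Fgf7 47.1 and 41.6 CPM and 0.883 (0.629 to 1.25). For these 4 genes no difference between E13.5 and E15.5 was detectable at these depths. In the 16 dermal cells of E14.5 Fgf10 stood at 59.1 CPM (36.6 to 90.3), from 21 UMIs in 8 cells, above both, while Tgfb2 had 107, Fzd4 25.3 and Fgf7 28.1 CPM. At P0, where the choice took nearly all non-proliferative mesenchymal cells, the levels were 31.0 CPM for Fgf10, 71.1 for Tgfb2, 34.3 for Fzd4 and 56.1 for Fgf7. Other signals did differ. Fgf18 had 24.7 CPM at E13.5 and 11.9 at E15.5, a ratio of 0.484 (0.275 to 0.842), while Cxcl13, with 7 UMIs at E13.5, had a ratio of 7.08 (3.28 to 18.2) and Sema3c one of 2.97 (2.04 to 4.43). Without the cell that held 40 of its 80 UMIs at E15.5, Cxcl13 had 19.3 CPM instead of 38.2, beside 5.40 CPM at E13.5. In the order E13.5, E14.5 and E15.5, Agtr2 had 152, 360 and 249 CPM, Nrk 134, 326 and 252 CPM, and Dlk1 2739, 3558 and 3109 CPM, each highest of the 3 at E14.5. Sfrp2 was lower at E15.5, at 111 against 272 CPM, a ratio of 0.410 (0.346 to 0.485), as were Sfrp1, at 0.194 (0.146 to 0.254), and Cxcl12, at 0.265 (0.207 to 0.337).

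In each matrix list more genes were at least 2-fold higher than lower at E15.5, by differing margins. Of 8 fibrillar collagens 5 were at least 2-fold higher and 0 lower, but 3 of the 5, Col1a1, Col1a2 and Col3a1, helped to choose the cells at both stages. The share over all genes was 7.56% higher and 12.3% lower. Of 18 other collagens 10 were higher and 3 lower, and of 18 proteoglycan genes 9 higher and 2 lower. Of 19 elastic fibre and microfibril genes 4 were higher and 0 lower, with a median of 0.51, of 28 matrix glycoproteins 9 higher and 5 lower, with a median of 0.38, and of 27 proteases and inhibitors 9 higher and 3 lower, with a median of 0.61. From E13.5 over E15.5 to the unseparated mesenchymal cells of P0, Col1a1 had 2008, 12446 and 27052 CPM and Dcn 587, 1968 and 4557 CPM. Aspn had 37.8, 199 and 1406 CPM. Dpt had 14 UMIs at E13.5 and 963 at E15.5, 42.6-fold higher (25.3 to 78.2). Col15a1, a basement membrane collagen, had 0 UMIs at E13.5 and 50 at E15.5. Fst was 14.6-fold (9.01 to 25.3) and Ccl2 63.9-fold (29.2 to 175) higher. Col1a1, Dpt, Ccl2 and Col15a1 were higher in other mesenchymal classes of the E15.5 library too, and Fst in its epithelial cells. Dcn was not, at 290 CPM at E13.5 and 229 at E15.5 in sub-epithelial cells, and 410.1 and 379.8 in proliferative cells. Aspn went from 36.8 to 6.42 CPM in proliferative and from 0 to 1.76 in sub-epithelial cells. Most proliferative cells of E15.5 had more Crabp1 and Lef1, the make-up of that class at E13.5 is not given, and its part in these values was not tested. From E13.5 to E15.5 Dpt went from 7.84 to 94.1 CPM in sub-epithelial and from 5.26 to 139 in proliferative cells, and Ccl2 from 11.8 to 76.9 and from 6.57 to 137 CPM. Col15a1 went from 0 to 38.7 and from 2.63 to 54.4 CPM, above its dermal level of 23.9, and Fst in epithelial cells from 129 to 1257 CPM. The sub-epithelial class of E13.5 was 17 cells with 255142 UMIs, so its levels of 0 to 11.8 CPM rest on few UMIs or none. Of the 20 dissociation stress genes 10 were higher at E15.5 and 1 lower, with a median of 0.97, and the part of this in Ccl2 and other inducible genes was not tested.

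Of 20 T-box, homeobox and patterning factors 1 was at least 2-fold higher at E15.5, 10 were lower and 9 passed in neither direction, with a median of -0.91 beside -0.21 over all genes. Of 57 mesenchymal factors 6 were higher and 15 lower, with a median of -0.20, while 7.56% of all genes were higher and 12.3% lower. Pitx1, known for setting hindlimb identity, had 79 UMIs at E13.5 and 0 in the dermal cells of every later library. Wt1, a factor of mesothelium and urogenital mesenchyme, had 40 UMIs at E13.5 and 0 at E15.5, and Aldh1a2, which makes retinoic acid, 54 and 1. Ebf2 and Ebf3, relatives of Ebf1, had 91 and 126 UMIs at E13.5, 3 and 6 at E15.5, and 127 and 105 at P0, while Ebf1 had 117 CPM at E13.5 and 148 at E15.5. At E14.5 Ebf2 had 14.1 and Ebf3 64.7 CPM. The proliferative cells of the E15.5 library were lower as well, with Ebf2 at 0 after 19.7 CPM at E13.5, Ebf3 at 1.13 after 57.8 and Pitx1 at 0 after 106 CPM. Of these cells at E15.5, 63 of 80 had more Crabp1 and Lef1, and the split at E13.5 is not given. The part of the make-up of this class, and of that library's gene table and processing, was not tested.

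Igf2 stood apart in the E15.5 library as a whole. Its level in dermal cells was 107 CPM at this stage, beside 1316 CPM in the E13.5, 1356 in the E14.5 and 3177 in the P0 library. In sub-epithelial cells it had 537 CPM at E13.5 and 33.4 at E15.5, and in epithelial cells 290.5 and 8.05 CPM. The difference was thus seen in each of these 3 classes, and the part of its processing and gene table in it was not tested. A further gene, Ptp4a1, a phosphatase, had 0 UMIs in the dermal cells of E13.5 and E14.5 and 311 at E15.5, where it was also present in sub-epithelial cells at 138 and epithelial cells at 434 CPM. Among the dermal cells of E15.5 the ratio of Igf2 to sub-epithelial cells given above is within 1 library.

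**Figure D5:**
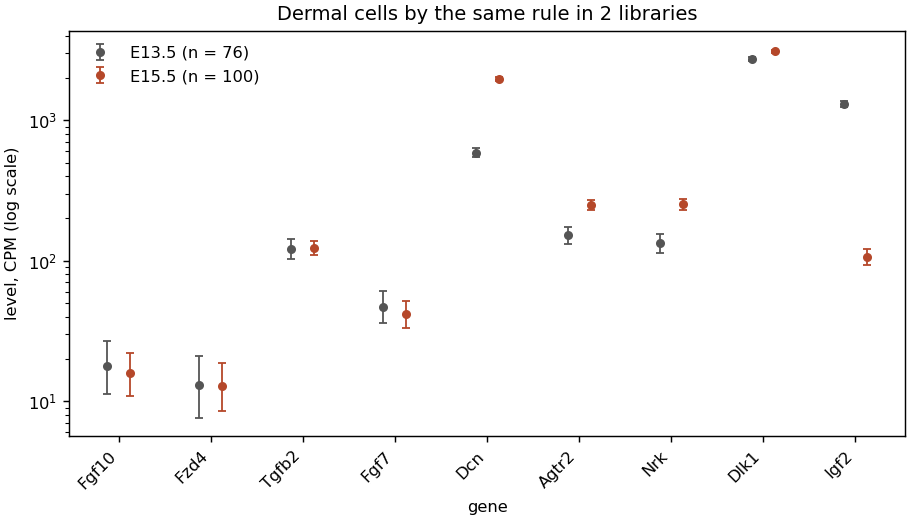
Levels in CPM (y, log scale) of 9 genes in cells chosen as dermal by the same UMI rule in the E13.5 (n = 76) and E15.5 (n = 100) libraries; points are summed UMIs as CPM and bars exact 95% counting intervals. The intervals of Fgf10, Fzd4, Tgfb2 and Fgf7 overlap between stages, Dcn, Agtr2 and Nrk stand higher at E15.5 and Igf2 lower.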

How the data were processed

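Droplet 3′ libraries (10x Genomics v3.1) of 4 stages were used as raw UMI counts per gene and barcode, which the authors deposited after alignment to mm10. Per the file headers the E15.5 table was made with Cell Ranger 3.1.0 and the other tables with 6.0.0, the version that the submitters' processing notes give for all. Here cells were filtered and classed as stated above, UMIs were summed by class and divided by the class total, and genes were matched between libraries by identifier. Coordinates are from GENCODE M21 (GRCm38) and promoters from RefSeq (GRCm38.p6) without chromosome 18, a set that held 136 of the 210 named genes. The members and gene lists were chosen with earlier results of these data known. Named genes were a set of marker genes, the 15 largest and 10 smallest ratios by the interval bound nearest to 1, up to 4 by level and 3 by ratio in each direction of every list, and the leading genes of the spread and components. With 1 library a stage, no statistical test was made. Proliferative, doublet and tie cells were treated as described, with no doublet removed. Scripts were tested on simulated data and run with Python 3.11.15, numpy 2.4.6, scipy 1.17.1, pandas 2.3.3 and scanpy 1.11.5. A few of the genes that the naming rule gives are not reported here.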

Additional observations from a re-analysis of the deposited data

How the results depend on the processing

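Of 118 recalculations under other settings, 27 could not differ, since a collagen minimum of 20 UMIs, a 5-fold collagen excess and leaving out Scrublet calls changed no value. Of the other 91, 79 kept their value within the counting interval or within 1.5 times, 12 moved and 0 reversed. The number of dermal cells was between 85, with a 2-fold margin between the classes, and 107, with a mitochondrial limit of 10%. Thinning each cell to 5000 UMIs gave shares of 6.68% for Fgf10, 35.2% for Tgfb2 and 5.36% for Fzd4, and log2 ratios of 0.66 for Fgf10 (5 UMIs against 0) and 0.34 for Fzd4 (4 against 0), both bounds set by the floor of 3 UMIs. Under it the shares of genes at least 2-fold higher and lower were 9.50% and 8.13%. They were 15.9% and 12.9% with no minimum level and 11.3% and 11.4% at a 1.5-fold limit, and with a 50 CPM minimum the lower share was 1.5%. Of the 116 named genes past 2-fold, 100 to 116 stayed past it in the same direction under each setting. The 50 CPM minimum, no minimum level and the 1.5-fold limit could not change these ratios, and the 3 settings without effect did not change them. Sizes moved more, with a gene at 0 in 1 class set at its bound against 3 UMIs. Under thinning 47 genes stood outside their counting interval, some of them as bounds and not as ratios. The largest distance, 4.53 on the log2 scale for Fzd4, came from such a bound (4 UMIs against 0) and is no change of size. With a 2-fold margin 21 genes left their interval (up to 2.15, Corin). The number was 17 with classes assigned on thinned cells (up to 2.09, Efemp1) and 0 to 10 under the others. Thinning reversed Pdgfc and Ntn1, and no other setting reversed any. The 3 alternatives that thin only the choice of class or leave out 1 member were added after seeing the data. No paired analysis was possible because each stage had 1 library. Low counts, as for Fgf10 (33 UMIs), Fzd4 (27) and Fgf18 (25), leave wide intervals, free RNA was gauged only from the epithelial cells, and doublets and the spread between embryos could not be measured here.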
